A study of Mus musculus with 4 samples.

Results

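Myeloid C-type lectin receptors were compared between bone marrow monocytes of aged mice (18 months) and of young mice (3 months). The family was set as a list of 10 genes: Clec4a1, Clec4a2, Clec4a3, Clec4d, Clec4e, Clec4n, Clec7a, Clec10a, Clec12a and Cd209a. Counts were taken for 9 of them, out of 31017 gene symbols in the tables, and Clec7a was not analysed here. All 9 passed the filter on low counts and were tested. The mice were wild-type C57BL/6 animals, and atherosclerosis is tagged as the disease on every library of both ages. Monocytes were isolated by flow cytometry, and 2 libraries of aged and 2 of young cells were sequenced in bulk after oligo-dT selection. No label says whether the libraries of one age came from separate animals or from pools, and the p-values below therefore reflect library-to-library spread that may be technical.

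C-type lectin receptors are surface proteins of myeloid cells that bind sugars, glycolipids or products of dying cells through a shared fold. Clec4d (also called MCL), Clec4e (Mincle) and Clec4n (Dectin-2) sense mycobacterial and fungal glycolipids and mannans, and signal through the adaptor Fcer1g to the kinase Syk and the scaffold Card9. Clec4a2 (DCIR1) and Clec12a (MICL) carry an inhibitory motif in their tail, called ITIM, that recruits phosphatases such as Ptpn6. Clec4a1 (DCIR4) and Clec4a3 (DCIR3) are relatives of Clec4a2 without that motif. Clec10a (MGL1) binds galactose-type sugars, and Cd209a is a mouse relative of human DC-SIGN found on monocyte-derived dendritic cells.

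The genes lie in 4 places of the GRCm38 assembly. The Clec4 genes form 1 cluster on chromosome 6, from 122921848 to 123289870, in the order Clec4a1, Clec4a3, Clec4a4, Clec4b1, Clec4a2, Clec4b2, Clec4n, Clec4d and Clec4e. Clec4e is on the minus strand and the other 8 are on the plus strand. Clec12a is farther along chromosome 6 (129342691 to 129365303), Clec10a on chromosome 11 (70156197 to 70170834) and Cd209a on chromosome 8 (3743397 to 3748984). No exon of the 9 genes overlapped an exon of another gene in GENCODE M21, on either strand. The counts below therefore do not mix with an antisense partner in that annotation, whatever strand setting was used.

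Close relatives can still share reads. The coding sequences of Clec10a and of its chromosome 11 neighbour Mgl2 (MGL2) were identical at 90.4% of aligned bases, and their longest run without a difference held 183 bases. The run is printed with up to 12 bases on either side, from coding base 490 of Clec10a and 538 of Mgl2, because a read that falls inside it cannot be placed. Capitals mark the bases that differ.
Clec10a: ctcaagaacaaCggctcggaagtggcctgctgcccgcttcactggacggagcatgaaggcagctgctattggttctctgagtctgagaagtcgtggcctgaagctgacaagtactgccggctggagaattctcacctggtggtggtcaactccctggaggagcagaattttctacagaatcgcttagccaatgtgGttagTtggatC
Mgl2: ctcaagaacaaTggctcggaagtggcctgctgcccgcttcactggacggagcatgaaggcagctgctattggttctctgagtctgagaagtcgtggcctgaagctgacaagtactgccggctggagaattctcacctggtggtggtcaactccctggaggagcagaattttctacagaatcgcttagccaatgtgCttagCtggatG
By contrast, Clec4a1 and Clec4a3 were identical at 73.4% of aligned coding bases, and their longest shared run held 23 bases. It is printed to show how far these cluster neighbours can be told apart, from coding base 316 of Clec4a1 and 295 of Clec4a3, with differing bases again in capitals.
Clec4a1: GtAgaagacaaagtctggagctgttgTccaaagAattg
Clec4a3: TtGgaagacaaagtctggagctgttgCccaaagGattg
Of all windows of 50 bases in the main coding transcript, 10.6% in Clec10a were shared with another gene, which was Mgl2. In Clec4a2 the share was 15.02%, with Clec4a4 and Clec4b1 as the partners. It was 0.932% in Clec4n, with the annotated gene Gm44147, and 0% in Clec4a1, Clec4a3, Clec4d, Clec4e, Clec12a and Cd209a. Seen from the partners, the share was 16.5% in Mgl2, with Clec10a and further genes. It was 15.7% in Clec4a4 and 9.73% in Clec4b1, both with Clec4a2. The values of Clec10a, Mgl2, Clec4a2, Clec4a4 and Clec4b1 are therefore uncertain. By how much is not known, since the sources used here give no read length.

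Library totals ranged from 20159129 to 34278754 counts, with young replicate 1 the deepest. A count of 0 would allow up to 3 counts, or 0.0868 to 0.151 CPM (counts scaled to a common library size), and none of the 9 genes came near that. Over all genes, 694 of 12035 tested passed an adjusted p of 0.05 in the quasi-likelihood test of edgeR, which is 5.77%; 346 (2.87%) were higher and 348 (2.89%) lower in aged monocytes. The libraries carried monocyte transcripts such as Ly6c2 at 1794 to 2489 CPM, and also neutrophil granule transcripts such as Ngp at 3076 to 5066 CPM. Markers of T and NK cells summed to between 45.6 and 54.2 CPM over 10 genes.

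In aged monocytes 2 of the 9 receptors, Clec4a3 and Clec10a, were higher and 1, Clec4d, was lower. The other 6 did not pass. The share past the threshold, 3 of 9, stands against the 5.77% of all genes, with a median log2 change of 0.12 over the 9 genes and -0.0044 over all tested genes. Groups did not overlap in 6 of the 9, against 51.6% of all tested genes. Clec4a3 alone passed with each library left out; Clec10a and Clec4d each lost the threshold when certain libraries were removed, as given with their values.

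**Figure D1:**
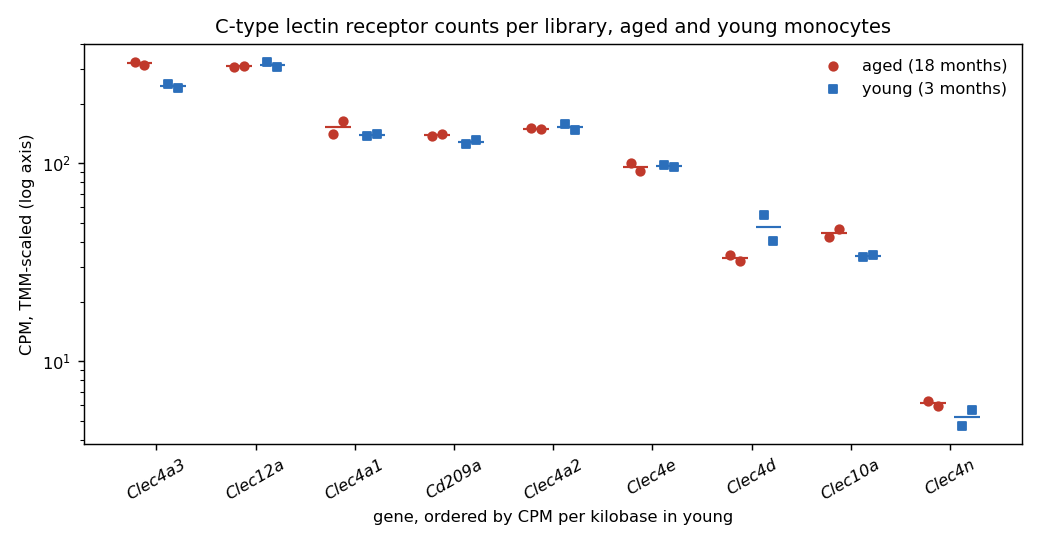
TMM-scaled CPM (log axis) of 9 myeloid C-type lectin receptor genes in each library, with aged libraries (18 months) as red circles and young libraries (3 months) as blue squares, and a line at each group's mean (n = 2). Clec4a3 and Clec10a lie higher in both aged libraries, Clec4d lies lower, and the other genes lie close together or overlap.

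Of the DCIR relatives, which share the cluster, only Clec4a3 passed, and the differences among them were not tested. Clec4a3 stood at 325 and 315 CPM in the aged libraries, against 253 and 242 CPM in the young ones. Both aged libraries lay well above both young ones, with 320.0 ± 6.77 CPM against 247 ± 8.08 CPM (SD, n = 2 each). The log2 change was 0.37 ± 0.057 (SE; 1.29-fold, edgeR adjusted p = 0.0048). Over the libraries left out in turn it ranged from 0.34 to 0.41, with adjusted p-values from 0.00165 to 0.0279.

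Clec4a1, the first gene of the cluster, was at 141.5 and 164.2 CPM in aged and 138.1 and 140.9 CPM in young libraries. The groups barely separated, and aged replicate 2 alone stood apart. Its log2 change of 0.13 ± 0.077 did not pass (adjusted p = 0.366), and leaving out libraries gave 0.019 to 0.24. Clec4a2, the inhibitory DCIR1, had 151 and 148 CPM in aged and 159 and 147 CPM in young libraries, so the groups overlapped (-0.029 ± 0.065, adjusted p = 0.846). Counts of Clec4a3 per count of Clec4a2 were 2.15 and 2.12 in the aged libraries and 1.60 and 1.64 in the young ones. Per count of Clec4a1 they were 2.30 and 1.92 in the aged libraries and 1.83 and 1.72 in the young ones.

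Clec4a3 was also the most abundant of the 9 per transcript length. On the scale of CPM per kilobase of exon, its level averaged 241 in aged and 187 in young monocytes. Clec12a followed with 113 in aged and 115 in young. In aged monocytes the others came in the order Clec4a1 (98.1), Cd209a (93.8), Clec4a2 (51.2), Clec4e (38.2), Clec4d (25.0), Clec10a (17.3) and Clec4n (4.91). In young monocytes the order was the same, with levels of 89.6 for Clec4a1, 86.5 for Cd209a, 52.2 for Clec4a2, 38.5 for Clec4e, 36.0 for Clec4d, 13.3 for Clec10a and 4.17 for Clec4n. Clec4a1 and Cd209a were neighbours whose libraries overlapped (88.7 to 105 and 84.4 to 94.6 CPM per kilobase over all 4 libraries), as were Clec4e and Clec4d in the young libraries. The order depends on the length used, which was that of the exons of all coding transcripts of a gene together. For Clec4a2 this was 2926 bases, with or without noncoding transcripts. Its main coding transcript is much shorter and held 1212 windows of 50 bases. On that shorter length the level of Clec4a2 would be higher, so its place in the order is uncertain. With the exons of all annotated transcripts counted, Clec12a lay at 55.4 to 58.7 CPM per kilobase, below Clec4a1 and Cd209a, and Clec4e at 18.5 to 20.3, below Clec4d in each library.

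Of Clec4d, Clec4e and Clec4n, which work through Fcer1g, only Clec4d passed, and the differences among them were not tested. Clec4d had 34.3 and 31.9 CPM in the aged libraries, against 55.1 and 40.2 CPM in the young ones. Both aged libraries were lower than both young ones, but young replicate 1 was far above young replicate 2, and the means were 33.1 ± 1.67 CPM in aged and 47.7 ± 10.5 CPM in young (SD, n = 2 each). The log2 change was -0.53 ± 0.14 (SE; 0.69-fold, edgeR adjusted p = 0.0467). Without young replicate 1 it was -0.28 (adjusted p = 0.391), and without aged replicate 2 it was -0.49 (0.0996), so the call depends on these libraries.

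Clec4e, the partner of Clec4d in sensing mycobacterial cord factor, starts on the opposite strand with 6523 bases between the 2 genes. It had 101 and 91.6 CPM in aged and 98.5 and 95.3 CPM in young libraries, and the groups overlapped (-0.010 ± 0.075, adjusted p = 0.953). Counts of Clec4d per count of Clec4e were 0.3398 and 0.3481 in the aged libraries and 0.559 and 0.422 in the young ones. The groups did not overlap in this ratio, and here too young replicate 1 was the highest. Clec4n was the least abundant receptor, at 6.26 and 5.94 CPM in aged and 4.69 and 5.67 CPM in young libraries, from 113 to 162 counts each. Its log2 change of 0.25 ± 0.20 did not pass (adjusted p = 0.529).

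**Figure D2:**
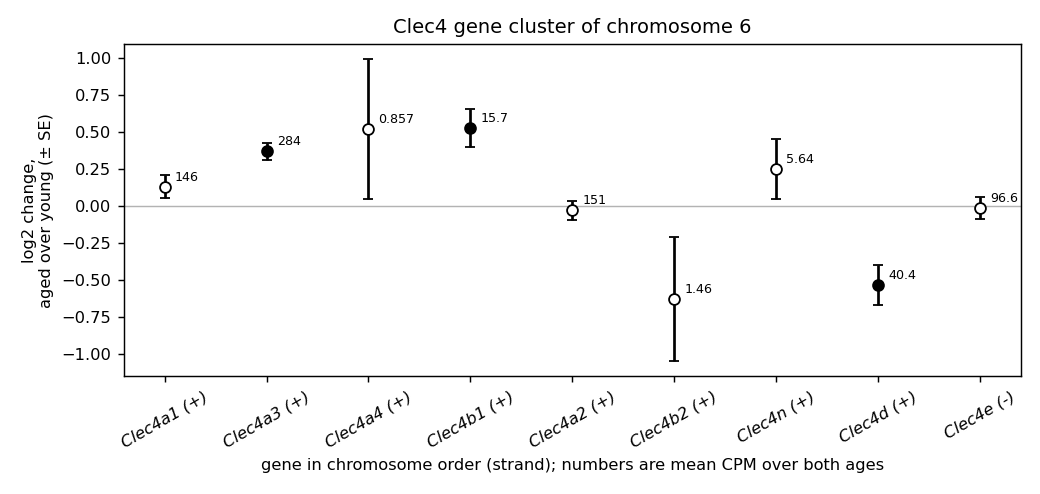
Log2 change (aged over young, ± SE, n = 2 libraries per age) of the 9 genes of the Clec4 cluster on chromosome 6, drawn in chromosome order with the strand and the mean CPM over both ages; filled points passed an adjusted p of 0.05. Clec4a3 and Clec4b1 are higher and Clec4d is lower in aged monocytes, while the neighbours Clec4a1, Clec4a2 and Clec4e did not pass.

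The cluster holds 3 further genes. Clec4b1 (DCAR), an activating receptor of the same branch, had 18.4 and 18.6 CPM in aged and 12.1 and 13.7 CPM in young libraries. It rose by 0.53 ± 0.13 on the log2 scale (edgeR adjusted p = 0.0395). It also passed with aged replicate 1 left out (0.0324), but gave adjusted p-values of 0.0602 to 0.294 with any other library left out. DESeq2 gave 0.054 for it. Clec4a4 (DCIR2) at 0.652 to 1.196 CPM and Clec4b2 at 0.828 to 2.01 CPM did not pass (adjusted p = 0.577 and 0.431). When Clec4a4 and Clec4b1 were added to Clec4a2, the log2 change of the sum was 0.025 ± 0.062.

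Promoter sequences are shown for 2 neighbouring pairs, Clec4d with Clec4e and Clec4a3 with Clec4a1. In each pair 1 gene passed the threshold in the main test and the other did not. The difference between the genes of a pair was not tested, and the call of Clec4d depends on single libraries. Each sequence is the 250 bases before a transcription start in RefSeq (GRCm38.p6), read along the gene. Capitals mark the core GAGGAA bound by the myeloid factor PU.1, or its complement TTCCTC. They lie at chr6:123261857-123262106 on the plus strand (Clec4d), chr6:123289872-123290121 on the minus strand (Clec4e), chr6:122952394-122952643 on the plus strand (Clec4a3, the second of its 2 starts) and chr6:122921598-122921847 on the plus strand (Clec4a1).
Clec4d: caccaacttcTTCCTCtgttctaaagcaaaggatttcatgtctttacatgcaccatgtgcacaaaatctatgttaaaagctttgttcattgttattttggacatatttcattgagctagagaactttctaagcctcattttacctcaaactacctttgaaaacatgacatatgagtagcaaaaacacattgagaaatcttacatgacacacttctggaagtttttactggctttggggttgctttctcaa
Clec4e: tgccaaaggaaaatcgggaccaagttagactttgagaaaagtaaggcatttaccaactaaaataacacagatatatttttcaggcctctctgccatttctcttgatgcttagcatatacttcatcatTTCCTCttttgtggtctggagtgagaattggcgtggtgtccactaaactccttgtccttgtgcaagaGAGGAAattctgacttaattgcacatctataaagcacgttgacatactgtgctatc
Clec4a3: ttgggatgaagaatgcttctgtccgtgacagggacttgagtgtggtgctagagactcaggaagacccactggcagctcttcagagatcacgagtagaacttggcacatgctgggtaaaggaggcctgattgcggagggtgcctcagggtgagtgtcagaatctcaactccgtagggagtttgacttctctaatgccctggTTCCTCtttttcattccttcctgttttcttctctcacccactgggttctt
Clec4a1: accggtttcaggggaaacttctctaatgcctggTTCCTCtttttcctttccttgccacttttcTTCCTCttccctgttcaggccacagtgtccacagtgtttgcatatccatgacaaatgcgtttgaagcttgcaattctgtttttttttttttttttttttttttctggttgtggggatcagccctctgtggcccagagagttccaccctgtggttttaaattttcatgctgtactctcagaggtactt
The core was present in these 4 windows, and in 5 of the 7 analysed receptors with an entry in the table, the fifth being Clec12a. Over all genes, 25.9% had it in a window of that length. TGANTCA, the letters bound by AP-1, was present in 1 of the 7 (7.82% of all genes), and TTGCNNAA, a C/EBP form, in 2 of the 7 (10.8% of all genes), each searched on both strands. The C/EBP letters were in Clec4e and not in Clec4d, and the other 2 motifs did not differ by presence within a printed pair. The window before the first start of Clec4a3 held none of the 3, so that window differs from the one of Clec4a1 in the PU.1 core. In the printed window of Clec4a3 26 bases lie in annotated exons, and the whole window of Clec12a does. A match is a run of letters and not a measured binding site.

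Of the receptors outside the Clec4 cluster, Clec10a rose. Its values were 42.2 and 46.5 CPM in aged libraries, against 33.8 and 34.6 CPM in young ones. All aged values exceeded all young ones, with means of 44.3 ± 3.06 CPM in aged and 34.2 ± 0.558 CPM in young (SD, n = 2 each). The log2 change was 0.37 ± 0.093 (SE; 1.297-fold, edgeR adjusted p = 0.0437). It passed with 1 of the 4 libraries left out, aged replicate 1 (0.013), and not without aged replicate 2 (0.143), young replicate 1 (0.268) or young replicate 2 (0.124), although the change stayed between 0.302 and 0.445.

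Mgl2, which shares the run printed above, had 13.2 and 10.9 CPM in aged and 8.25 and 7.22 CPM in young libraries. Its groups did not overlap either, and the log2 change of 0.63 ± 0.17 came just short of the threshold (adjusted p = 0.0524). With the counts of Clec10a and Mgl2 added, the sum rose by 0.43 ± 0.083 (edgeR adjusted p = 0.0146). The sum was chosen after seeing the data and was not tested with libraries left out. Reads placed in either gene of the pair count alike in this sum.

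Cd209a was at 138 and 140 CPM in aged and 125 and 131 CPM in young libraries. Both aged values were above both young ones, yet the log2 change of 0.12 ± 0.064 did not pass (adjusted p = 0.327) and lay between 0.084 and 0.15 with any library left out. Counts of Clec10a per count of Cd209a were 0.306 and 0.332 in the aged libraries and 0.270 and 0.263 in the young ones. Clec12a, an inhibitory receptor for uric acid crystals, had 307 and 311 CPM in aged and 325 and 306 CPM in young libraries. The groups overlapped, and the log2 change of -0.029 ± 0.057 did not pass (adjusted p = 0.814).

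Summed over the 9 receptors, the level was 1247 and 1255 CPM in aged and 1192 and 1143 CPM in young libraries. The difference of the means was 83.3 CPM, and lay between 57.9 and 108 CPM with any library left out. Clec4a3 made up 26.1% and 25.1% of the family's counts in the aged libraries and 21.2% and 21.1% in the young ones. Clec12a made up 24.7% and 24.8% in the aged libraries and 27.2% and 26.8% in the young ones. Clec4a3 thus held the largest share in aged libraries and Clec12a in young ones, counted without regard to length.

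**Figure D3:**
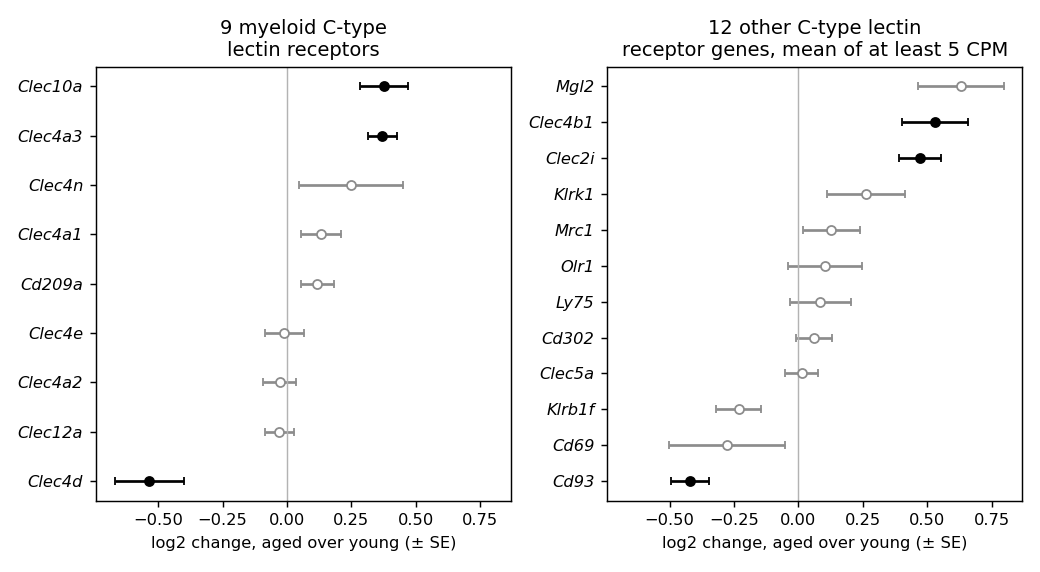
Log2 changes (aged over young, ± SE, n = 2 libraries per age) of the 9 myeloid C-type lectin receptors on the left and of 12 other C-type lectin receptor genes with a mean of at least 5 CPM on the right; filled points passed an adjusted p of 0.05. Changes lie between -0.53 and 0.37 on the left, and on the right Mgl2, Clec4b1 and Clec2i lie above 0.4 while Cd93 is lower.

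Among 30 other tested genes with a C-type lectin domain, 2 rose and 2 fell in aged monocytes, with a median log2 change of 0.072. Besides Clec4b1, the rise was that of Clec2i, a ligand of NK cell receptors, at 61.3 and 58.7 CPM in aged and 44.3 and 42.1 CPM in young libraries (0.47 ± 0.083, edgeR adjusted p = 0.00945). Of the falls, Cd93, a receptor of the thrombomodulin group, had 68.6 and 66.6 CPM in aged and 88.5 and 92.7 CPM in young libraries (-0.42 ± 0.074, edgeR adjusted p = 0.00922). Without young replicate 1, Clec4b1, Clec2i and Cd93 did not pass (adjusted p = 0.0522 to 0.294), and without young replicate 2 Clec2i and Cd93 gave 0.0531. Clec5a, an activating receptor of monocytes, had 189 and 173 CPM in aged and 179 and 181 CPM in young libraries (0.012 ± 0.064, adjusted p = 0.938).

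Of the signalling chain beneath the activating receptors, none of 19 tested genes passed in edgeR or in DESeq2, although 5 had an unadjusted edgeR p under 0.05. The median log2 change was 0.029. Fcer1g, the adaptor that Clec4d, Clec4e and Clec4n need, stood at 1184 and 1175 CPM in aged and 1160 and 1152 CPM in young libraries (0.029 ± 0.049, edgeR adjusted p = 0.783). Syk had 370.4 and 363 CPM in aged and 377 and 369.9 CPM in young libraries (-0.027 ± 0.054, 0.82). Card9 was scarce, at 11.7 and 11.7 CPM in aged and 13.8 and 12.8 CPM in young libraries (-0.19 ± 0.13, 0.457). The smallest p of the chain belonged to Vav1, a guanine nucleotide exchange factor (0.21 ± 0.055, adjusted p = 0.0519).

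On the inhibitory side, 1 of 4 phosphatase genes rose. Ptpn6, which encodes SHP-1 and binds the ITIM of Clec4a2 and Clec12a, had 710.1 and 724 CPM in aged and 574 and 588 CPM in young libraries. The groups lay far apart for their spread (0.30 ± 0.051, edgeR adjusted p = 0.00773), and the call was lost only without young replicate 1 (0.0764). The other 3, Ptpn11, Inpp5d and Inppl1, did not pass, and the median of the 4 was -0.026.

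Of 17 tested genes known as outputs of Card9 and NF-kB in myeloid cells, 5 rose and none fell in edgeR, with a median log2 change of 0.41; an unadjusted p under 0.05 was reached by 13 of them, while in DESeq2 1 gene was lower. Smallest in p were Ccl3 (1.32 ± 0.13), which attracts monocytes, Cxcl2 (1.23 ± 0.14), which attracts neutrophils, and Nfkb2 (0.52 ± 0.071), which encodes p100. These 3 passed with each library left out. Many other receptors drive the same genes, and the part of the lectin receptors was not tested.

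Markers of monocyte subsets and of other cells moved with age in the same libraries. In these bulk samples, more cells of a type and more RNA per cell cannot be told apart. Of 14 non-classical monocyte genes 11 rose and none fell, with a summed level of 2448 and 2376 CPM in aged and 1824 and 1769 CPM in young libraries. Among 10 genes listed for classical monocytes 2 rose and 4 fell. The list and its sum do not describe these cells alone, since Cd177 and Mmp8 are also neutrophil genes. On the log2 scale Lyz1 rose by 0.91 ± 0.10 and Cd177 by 0.35 ± 0.053, while Chil3 fell by 0.75 ± 0.048. The summed level of the 10 was 17792 and 17851 CPM in aged and 20854 and 21107 CPM in young libraries. Their part in the rise of Clec4a3 was not tested.

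Beside Clec10a, 7 of 8 MHC class II genes rose (6162 and 6501 CPM summed in aged, 2417 and 2477 CPM in young libraries). Of 14 dendritic cell genes 2, Spib and Flt3, rose and none fell, with 229 and 233 CPM summed in aged and 197 and 196 CPM in young libraries. None of the 14 was at 0, and 11 of the 14 log2 changes were positive. Of 12 tested macrophage genes C1qb, C1qc and Axl rose and none passed as lower, with 7 log2 changes positive and 5 negative. The summed levels of this list overlapped, at 671 and 659 CPM in aged and 644 and 665 CPM in young libraries. The part of these cells in the rise of Clec10a was not tested.

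Clec4d is also a receptor of neutrophils, and of 12 neutrophil and granule genes 2 rose and 5 fell. Ltf rose by 0.82 and Ngp by 0.67 on the log2 scale, while S100a8 fell by 0.40 and Cxcr2 by 0.42. Their summed level was 32749 and 33371 CPM in aged and 34284 and 32936 CPM in young libraries, so the groups overlapped, and none of the 12 was at 0. What neutrophil transcripts contribute to the level of Clec4d was not tested. Of 9 tested B cell genes 3 rose (54.0 and 56.7 CPM summed in aged, 36.8 and 32.9 CPM in young libraries), of 8 basophil, mast cell and eosinophil genes 2 rose and of 8 erythroid genes 1 rose. None of 9 T and NK cell genes passed in edgeR, with 2 at an unadjusted p under 0.05, and none of 3 platelet genes, with 2 at an unadjusted p under 0.05.

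**Figure D4:**
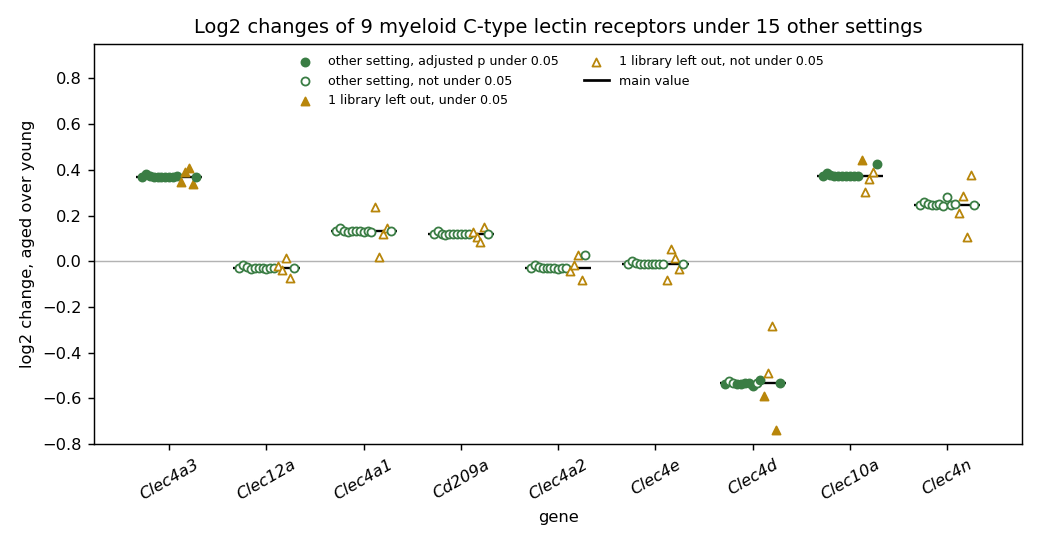
Log2 change (aged over young) of each of the 9 receptors under 15 other settings: circles for another scaling, filter, test, replicate block or summed rows, triangles for 1 library left out, filled where the adjusted p was under 0.05, and a line at the main value. Clec4a3 passed in each of the 15 settings, Clec10a in 12 and Clec4d in 10, and the triangles of Clec4d spread from -0.74 to -0.28.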

How the data were processed

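RNA from sorted bone marrow monocytes was sequenced in 2 aged and 2 young libraries. For each library the authors deposited 1 table of raw, whole-number counts by gene symbol, not normalized. Tools listed in the submitters' processing notes are HTSeq, STAR 2.5.3, cutadapt and DESeq2, with mm10 as the build and no roles stated. Annotation, strand setting and read length were not given in the sources used here. The receptors, gene lists and tests were chosen with earlier results of these data known.

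Genes were filtered with filterByExpr (minimum count 10, minimum total 15), scaled by TMM and tested two-sided with the quasi-likelihood test of edgeR 4.0.16 in R 4.3.3, adjusted by Benjamini-Hochberg over all 12035 genes at 0.05. Each SE was derived as the log2 change over the root of the F statistic. CPM use TMM-scaled library sizes, and floors cover counting error only. Lists were counted without a set test. The naming rule took all 10 receptors, and Mgl2, Clec4a4, Clec4b1, Clec4b2, Clec5a, Fcer1g, Syk, Card9 and Ptpn6. From each other list it took up to 3 genes per direction that passed, by smallest p. The text names only part of the genes taken from these lists.

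The alternatives tried were scaling by library size, upper quartile or RLE, 3 low-count settings (no filter, at least 1 CPM in 2 libraries, a mean of at least 5 CPM), DESeq2 1.42.0, limma-voom (limma 3.58.1), robust edgeR, a replicate block and each library left out; summing near-identical rows was added after seeing the data. With 1 library left out, the lone library of an age is assumed to vary like the other age. Replicates differed beyond counting noise (chi-square per degree of freedom 10.2 for aged and 13.5 for young). Positions and transcripts are from GENCODE M21 and promoters from RefSeq, both GRCm38, the assembly also called mm10. Coding sequences were aligned with Biopython 1.88. The test was also run on simulated data with known changes, using means over all libraries. Each simulated gene took the spread typical of its level and not its own, so recovery in the real data may be poorer. On the simulated data the test called 9 of 49 genes changed 1.25-fold, 29 of 50 changed 1.5-fold and 43 of 49 changed 2-fold. Of 11669 unchanged genes it called 7. The values of 1 other lectin gene that passed are not reported here.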

Additional observations from a re-analysis of the deposited data

How the results depend on the processing

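Over 15 alternatives for each of the 9 receptors, 121 of 135 values kept their direction and their side of the threshold. Clec4a3 passed in all 15. Of the 8 that lost the threshold, 5 were values of Clec4d, with upper-quartile scaling (-0.52), library-size scaling (-0.53) and robust edgeR (-0.53, adjusted p = 0.0524) besides the 2 libraries named above; the cause was not tested. The values with a changed sign belonged to genes that never passed: with libraries left out in turn, Clec4a2 ranged from -0.083 to 0.029, Clec12a from -0.072 to 0.015 and Clec4e from -0.081 to 0.054, while Clec4a2 was 0.025 with near-identical rows summed and Clec4e 0.0028 with upper-quartile scaling. The number of lower receptors was therefore 0 with upper-quartile scaling, library-size scaling and robust edgeR. Leaving out 1 library gave 1 to 3 receptors past the threshold, 1 to 2 higher and 0 to 1 lower. Over all genes the same gave 197 to 1040 calls, 116 to 452 higher and 81 to 588 lower, with the fewest without young replicate 1, the deepest library. Without a low-count filter 17314 genes were tested and 1399 passed, 606 higher and 793 lower. That setting called 4 other lectin receptors as higher (DESeq2 called 1), 3 genes of the Syk and Card9 chain as higher, and 1 Card9 output gene as lower (DESeq2 likewise 1).

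The replicate numbers are shared by both ages but are not said to mark animals or days. Same-numbered libraries deviated together only weakly (correlation 0.094 across genes). With the replicate number as a block, 1817 genes passed, 801 higher and 1016 lower, while the receptors still numbered 2 higher and 1 lower. The block fit leaves only 1 residual degree of freedom, so its spread is poorly estimated and its calls need caution. With 2 libraries per age, a change that did not pass is not shown to be absent.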
